A study of Bos taurus with 24 samples.

Results

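Genes of the antioxidant defence were followed in skin fibroblasts, which make the dermal matrix, of Holstein and Angus cattle before and after lipopolysaccharide (LPS), the endotoxin of Gram-negative bacteria. They were 10 genes taken by symbol, out of 27371 symbols on 59846 rows of the count tables, where a row is the span of a gene or an interval without a symbol. They are the superoxide dismutases SOD1, SOD2 and SOD3, the glutathione synthesis genes GCLC, GCLM and SLC7A11, the thiol and quinone reductases TXNRD1, SRXN1 and NQO1, and the haem oxygenase HMOX1. Each symbol stood on 1 row, and all 10 were detected.

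The cultures came from 4 Holstein (a dairy breed) and 4 Angus (a beef breed) heifers of similar age and had been frozen at an early passage. Each was sampled at 0 h, before LPS, and at 2 h and 8 h of LPS at 100 ng/ml, which gave 24 samples in 6 groups of 4 animals. All groups shared a medium with fetal bovine serum, antibiotics and a supplement of insulin, transferrin and selenium. Untreated cells stood only at 0 h, so the effect of LPS and that of time after the start of the challenge cannot be told apart. The comparisons asked which antioxidant genes responded to LPS, in which order, and whether the breeds differed at rest or in their response.

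Cells make superoxide in mitochondria and through oxidases. Superoxide dismutases turn it into hydrogen peroxide, SOD1 in the cytosol, SOD2 in the mitochondrial matrix and SOD3 outside the cell. Glutathione and the thioredoxin system then supply the electrons that remove peroxide and repair oxidised protein thiols. SOD2 is known as a target of NF-kB in inflamed tissues. GCLC, GCLM, SLC7A11, TXNRD1, SRXN1, NQO1 and HMOX1 are known targets of NRF2 (NFE2L2), the transcription factor that KEAP1 holds in check, and HMOX1 is repressed by BACH1.

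Levels are given as CPM, the share of a row in the counts of its library, with library sizes adjusted by edgeR's TMM factors, and a fold change is on the log2 scale with its standard error (SE). A gene rose or fell when the false discovery rate (FDR) of edgeR's likelihood-ratio test, adjusted over all rows tested, was under 0.05, and it passed the full threshold when the fold change was also at least 2 and the mean CPM above 1. Total counts were 51014538 to 104406293 per sample, and 3 counts stood for 0.0287 to 0.0588 CPM. The lowest counts of SOD2 and SOD3 in a sample were 125 and 41, and no other antioxidant gene had fewer than 348. Each COL1A1 count stood for 66.17 to 67.06 bases of coverage in 4 libraries and for 111.78 to 119.03 in 20, so in the 4 the reads of this gene appear to have been counted in another way. The 4 libraries were Angus 4, Holstein 2 and Holstein 4 at 0 h and Angus 3 at 2 h, and the main results that move without them are given both ways. These libraries also had more of their reads matched (96.227% to 96.537%, against 92.879% to 95.248% in the other 20). Their counts per matched read were higher too, at 1.562 to 1.712 against 1.5 to 1.542. None of the 10 antioxidant genes showed a shift of the COL1A1 size in covered bases per count over the 24 samples. The values were 64.5 to 67.5 for SOD1, 65.6 to 77.6 for SOD2, 67.6 to 72.1 for GCLM and 76.3 to 80.1 for HMOX1. The largest span was that of TXNRD1, at 240.8 to 276.5. Whether their counts differ in the 4 libraries in another way was not tested, nor were genes outside the 10. All 10 fibroblast markers were expressed, and all 8 genes of a list of known LPS targets passed the threshold at 2 h and at 8 h, with 2.82% and 1.42% of all rows. The study had reported genes of this list as induced in these same samples, so it is not an independent check. The 8 keratinocyte markers summed to 1.51 to 16.1 CPM per sample and the 8 immune cell markers to 2.18 to 5.80 CPM, against 44640 CPM or more for the fibroblast markers. In such bulk samples, fewer cells of a type and less RNA per cell cannot be told apart.

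SOD2 had the largest fold change after LPS of the 10 genes, at 8 h. The SOD2 row lay on the plus strand of chromosome 9 (UMD v3.1, chr9:97399159-97427298). In the Holstein cultures SOD2 stood at 3.67, 3.43, 2.97 and 2.75 CPM at 0 h in animals 1 to 4. At 2 h these animals had 4.59, 4.63, 3.23 and 4.27 CPM, and at 8 h 25.3, 30.9, 14.9 and 31.0 CPM. All 4 Holstein cultures at 8 h lay above every Holstein sample of the earlier hours. In the Angus cultures SOD2 stood at 1.73, 1.65, 2.96 and 2.16 CPM at 0 h. After 2 h the Angus values were 2.40, 2.46, 11.5 and 2.85 CPM, and after 8 h they were 4.25, 5.98, 24.1 and 2.27 CPM. Angus animal 3 was far above the other Angus cultures at 2 h and at 8 h and within the Holstein range at 8 h, whereas Angus animal 4 at 8 h was below its own 2 h level.

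With the breeds combined, SOD2 rose 6.48-fold at 8 h (log2 2.70 ± 0.43 SE, n = 8 animals, FDR = 4.56e-07 by edgeR) and was higher in 8 of 8 animals, as were 13.8% of all rows tested. It was the only antioxidant gene past the threshold among the 10 at 8 h, where 1.42% of all rows tested were. From 2 h to 8 h SOD2 rose by 1.96 ± 0.48 (FDR = 0.000836), in 7 of 8 animals. SOD2 and HMOX1, which fell, were the 2 of the 10 genes past the threshold between these hours, as were 2.76% of all rows. Within Holstein the 8 h rise was 7.97-fold (2.99 ± 0.23, 4 animals, edgeR FDR = 4.06e-31), past the threshold with 2.51% of all rows. Within Angus it was 4.31-fold (2.11 ± 0.64, 4 animals, edgeR FDR = 0.0419), past the threshold with 0.863% of all rows, and this call depended on single animals. Without Angus animal 3 the Angus value was 1.17 (FDR = 0.0604), without animal 1 it was 2.26 (FDR = 0.152) and without animal 2 it was 2.16 (FDR = 0.248). The call was also lost without the 4 libraries with other COL1A1 counting (2.11, edgeR FDR = 0.121). With the animal as a block, which compares each culture with itself, the Angus rise was 1.57 (edgeR FDR = 0.00105).

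At 2 h SOD2 was higher than at 0 h in 8 of 8 animals, by 0.11 to 1.79 on the log2 scale, but the difference missed the FDR limit (0.75 ± 0.31, FDR = 0.0617). With the animal block it passed (0.60, edgeR FDR = 0.00242), also within Holstein (0.37, FDR = 0.0167) and within Angus (0.85, FDR = 0.00769). Of all rows tested with the breeds combined, 17.8% were higher at 2 h in all 8 animals.

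The other dismutases changed little with LPS. SOD1 (chr1:3113948-3122613, minus strand) ranged from 57.0 to 87.2 CPM over the 24 samples. Its change was -0.01 ± 0.10 at 2 h and -0.12 ± 0.10 at 8 h, neither past the FDR limit, with a 95% interval at 8 h from -0.32 to 0.07. At 8 h SOD1 was nevertheless lower in 8 of 8 animals, by 0.02 to 0.36 on the log2 scale, as were 14.0% of all rows, and with the animal block it fell (-0.12, edgeR FDR = 0.0326). SOD3 (chr6:45927554-45930821, plus strand) was low, at 0.57 to 1.68 CPM in Holstein and 1.46 to 6.38 CPM in Angus. Its LPS changes with the breeds combined were 0.05 ± 0.48 at 2 h and 0.21 ± 0.50 at 8 h. SOD3 was below the expression filter within Holstein and was not tested there.

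**Figure D1:**
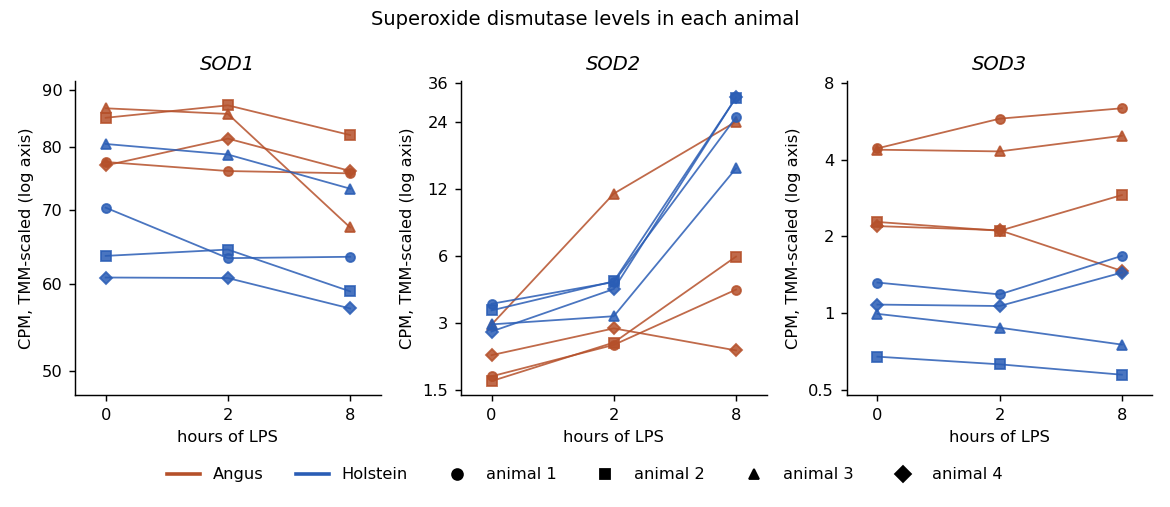
TMM-scaled CPM (log axes, each with its own range) of SOD1, SOD2 and SOD3 at 0, 2 and 8 h of LPS. Each line is 1 animal, coloured by breed. SOD2 climbs to 14.9 to 31.0 CPM in the 4 Holstein cultures at 8 h and to 24.1 CPM in Angus animal 3, while the other 3 Angus cultures stay at or below 5.98 CPM.

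The SOD2 counts per 100 SOD1 counts give a measure that needs no scaling between libraries, although it is not corrected for gene length and moves with SOD1 too. Its Angus median at 0, 2 and 8 h was 2.52, 3.33 and 6.45, and its Holstein median was 4.87, 7.11 and 46.0. At 8 h the Angus cultures ranged from 2.98 to 35.7 and the Holstein cultures from 20.3 to 54.4, so the breeds overlapped through Angus animal 3. Over the 8 animals the log2 ratio rose by 0.63 from 0 h to 2 h and by 2.37 from 0 h to 8 h (exact paired permutation test, two-sided, p = 0.00781 for each, the smallest p that 8 pairs allow, adjusted p = 0.0117 over 3 changes). The Holstein ratio was higher by 0.87 at 0 h, by 0.46 at 2 h and by 2.26 at 8 h on the log2 scale (exact permutation test, two-sided, p = 0.0286, 0.4 and 0.0571). None of these breed differences passed after adjustment over the 3 hours (adjusted p = 0.0857, 0.4 and 0.0857), and the smallest p that 4 against 4 allow was 0.0286. The breed difference of SOD1 itself was -0.24, -0.31 and -0.25 at these hours (edgeR FDR = 0.171, 0.0498 and 0.131), and at 2 h SOD2 alone differed by -0.20. Without Angus animal 3 the ratio differed by 1.016, 0.99 and 2.97, and over all animals left out in turn by 0.24 to 0.99 at 2 h and 1.78 to 2.97 at 8 h.

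Tested at each hour on the samples of that hour, the breed difference of SOD2 missed the FDR limit. It was, as Holstein over Angus, 0.59 ± 0.24 at 0 h (FDR = 0.0733), -0.20 ± 0.51 at 2 h (FDR = 0.821) and 1.48 ± 0.63 at 8 h (FDR = 0.097). In 1 fit of all 24 samples the 8 h difference passed (1.48, edgeR FDR = 0.0407). The values depended on Angus animal 3. Without it the difference was 0.79 at 0 h (FDR = 0.00164), 0.70 at 2 h (FDR = 0.00554) and 2.61 at 8 h (FDR = 3.60e-09), and the sign at 2 h turned. Without that animal the FDR limit was passed by 21.6%, 28.0% and 25.0% of all rows tested at these hours. The interaction of breed and LPS for SOD2 was -0.79 ± 0.60 at 2 h and 0.88 ± 0.73 at 8 h (FDR = 1.0 at each hour). Without Angus animal 3 it was 1.81 at 8 h and passed the threshold (edgeR FDR = 0.0107), where 0.412% of all rows passed the FDR limit.

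A row next to SOD2 moved with it. LOC100848019 (chr9:97390461-97395406, minus strand) lies 3752 bases before the start of the SOD2 row and held 2.64 to 4.89 counts per SOD2 count (median 3.28). Its mean in Angus was 6.77 ± 0.81 CPM (SD) before LPS, 15.7 ± 14.2 after 2 h and 33.9 ± 35.8 after 8 h. In Holstein these means were 8.88 ± 1.00, 12.6 ± 1.69 and 94.5 ± 33.5 CPM. Angus animal 3 was again the high Angus culture, with 37.0 CPM at 2 h and 87.2 CPM at 8 h. LOC100848019 rose at 2 h (0.86 ± 0.28, edgeR FDR = 0.0129) and at 8 h (3.03 ± 0.41, edgeR FDR = 8.45e-10), each time in 8 of 8 animals.

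Counting by strand is not stated. In the newer assembly ARS-UCD2.0 the RefSeq gene table spans SOD2 over 10037 bases, against 28140 in these tables, and holds no gene of the name LOC100848019. Whether its reads belong to SOD2 transcripts was not tested, and the row was singled out after its values had been seen. With its counts added to those of SOD2, SOD2 rose at 2 h (0.83, edgeR FDR = 0.018) and at 8 h (2.96, FDR = 3.50e-09), and it was higher in Holstein at 0 h (0.44, FDR = 0.0418).

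Of 12957 expressed rows with a symbol, LOC100848019 was the most like SOD2 over the 24 samples (Pearson r = 0.988 of log2 CPM). Next were TMEM184C (r = 0.95), PITPNC1 (r = 0.939), CYP3A4 (r = 0.927), a drug-metabolising cytochrome, and SLC11A2 (r = 0.922), an iron transporter. The samples share animals and treatments, so these are descriptions of shared pattern only. CYP3A4 went from 4.802 ± 1.128 (SD) to 45.3 ± 49.5 CPM in Angus between 0 h and 8 h and from 11.8 ± 5.61 to 131 ± 52.5 CPM in Holstein. TMEM184C covered a narrower range, from 48.6 ± 1.35 CPM in Angus at 0 h to 77.9 ± 8.18 CPM in Holstein at 8 h.

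**Figure D2:**
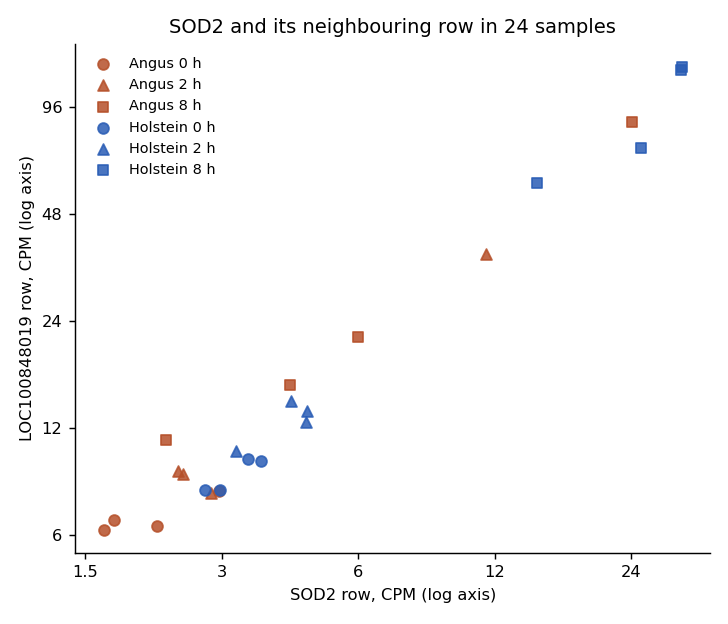
CPM of the SOD2 row against that of the neighbouring row LOC100848019 in the 24 samples (log axes), with breed by colour and hour by symbol. The points follow one line, with 2.64 to 4.89 LOC100848019 counts for each SOD2 count, and the 2 h and 8 h samples of Angus animal 3 sit apart from the other Angus samples of those hours.

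HMOX1, TXNRD1 and SRXN1 formed an early group that rose at 2 h and fell again by 8 h. HMOX1, the inducible enzyme that opens the haem ring (chr5:73980776-73987841, plus strand), stood at 31.5, 33.1, 33.9 and 45.6 CPM in Angus animals 1 to 4 at 0 h. At 2 h these had 92.6, 91.0, 96.9 and 101.7 CPM and at 8 h 26.5, 22.7, 33.2 and 23.98 CPM. The Holstein animals had 15.8, 14.3, 10.9 and 17.9 CPM at 0 h, 47.6, 35.8, 24.7 and 35.1 CPM at 2 h and 12.4, 11.8, 8.61 and 13.7 CPM at 8 h. Every animal peaked at 2 h, and at each hour every Angus culture lay above every Holstein culture.

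HMOX1 rose 2.58-fold at 2 h with the breeds combined (1.37 ± 0.34, FDR = 0.000932), 2.65-fold within Angus (1.41 ± 0.14, FDR = 3.42e-19) and 2.42-fold within Holstein (1.28 ± 0.21, FDR = 1.25e-07). It was the only antioxidant gene of the 10 past the threshold at 2 h with the breeds combined, where 2.82% of all rows tested were. From 2 h to 8 h HMOX1 fell (-1.78 ± 0.33, FDR = 4.98e-06) in 8 of 8 animals. At 8 h it was lower than at 0 h in 8 of 8 animals, by 0.03 to 0.91 on the log2 scale. This difference missed the FDR limit (-0.41 ± 0.32, FDR = 0.468) and passed with the animal block (-0.39, edgeR FDR = 3.77e-05).

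TXNRD1, the cytosolic selenoenzyme that reduces thioredoxin (chr5:68239611-68302679, plus strand), rose 1.88-fold at 2 h (0.91 ± 0.14, n = 8, edgeR FDR = 4.62e-09). In Angus it went from 86.8, 80.01, 58.9 and 102.7 CPM at 0 h to 157, 143, 93.8 and 200 CPM at 2 h and 75.7, 73.9, 46.7 and 120.2 CPM at 8 h. In Holstein it went from 69.5, 85.5, 70.4 and 76.1 CPM to 151, 177, 129 and 136 CPM and then to 63.3, 85.3, 67.8 and 66.4 CPM. The 4 Angus animals kept their order at all hours, with animal 4 highest and animal 3 lowest, and the breeds overlapped throughout. Between 2 h and 8 h TXNRD1 fell by 0.98 on the log2 scale (FDR = 3.72e-07). Leaving out the 4 libraries with other COL1A1 counting raised the 2 h value to 1.08 (FDR = 6.31e-13), past the threshold, and moved the fall to -1.06 (FDR = 3.64e-09). Its row is overlapped by EID3 and by an interval without a symbol that took 2.97 to 3.48 counts per TXNRD1 count, and the row itself showed 240.8 to 276.5 covered bases per count, against 61.9 to 98.0 for the other 9 genes. The level of TXNRD1 is therefore uncertain. The overlapping interval changed by 0.89 ± 0.16 at 2 h (edgeR FDR = 3.85e-07) and by -0.11 ± 0.18 at 8 h. Within Angus the 2 h rise of TXNRD1 was 0.85 ± 0.25 (edgeR FDR = 0.00723) and missed the limit without animal 1 (FDR = 0.1) or animal 2 (FDR = 0.0962).

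SRXN1, sulfiredoxin, restores over-oxidised peroxiredoxins (chr13:60944183-60951049, plus strand). Its levels in Angus were 75.4, 90.4, 71.6 and 81.0 CPM at 0 h, 128, 132, 122 and 122 CPM at 2 h and 65.6, 75.5, 54.1 and 70.2 CPM at 8 h. In Holstein they were 52.9, 49.7, 45.9 and 45.5 CPM, then 93.2, 83.8, 70.2 and 65.6 CPM, then 45.9, 54.6, 43.1 and 43.8 CPM. The breeds did not overlap at 0 h or 2 h, and at 8 h Holstein animal 2 lay just above Angus animal 3. SRXN1 rose 1.59-fold at 2 h (0.67 ± 0.19, FDR = 0.00339) and fell from 2 h to 8 h (-0.85 ± 0.17, FDR = 1.60e-05), in 8 of 8 animals each time. From 2 h to 8 h 17.2% of all rows were lower in all 8. Without the 4 libraries with other COL1A1 counting the 2 h value with the breeds combined was 0.55 (FDR = 0.0806), although within Angus it was 0.68 (FDR = 3.84e-05) and within Holstein 0.66 (FDR = 0.00364). At 8 h SRXN1 differed from 0 h by -0.18 ± 0.17 (FDR = 0.564), and with the animal block it was lower (-0.17, edgeR FDR = 0.015).

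NQO1, the quinone reductase (chr18:36911356-36924689, minus strand), went the other way. It was lower than at 0 h in 8 of 8 animals at 2 h, as were 18.3% of all rows, and at 8 h. At 8 h it fell 1.64-fold with the breeds combined (-0.71 ± 0.24, FDR = 0.0302) and 1.60-fold within Angus (-0.68 ± 0.17, FDR = 0.0059). The combined call was lost without Angus 1, 2 or 3 or Holstein 1 or 2 (FDR = 0.0573 to 0.0899), and the Angus call without animal 1 (FDR = 0.127) or 2 (FDR = 0.107). The combined call was also lost by the quasi-likelihood test (FDR = 0.0586), without TMM (FDR = 0.0762) and without a filter (FDR = 0.0536), and the Angus call by the quasi-likelihood test (FDR = 0.0747) and in 1 fit of all samples (FDR = 0.219). Within Holstein the value was -0.75 ± 0.36 (edgeR FDR = 0.173), and the animals differed widely from each other. Holstein animals 1 and 2 had 141 and 122 CPM at 0 h, while animals 3 and 4 had 58.1 and 60.03 CPM. At 8 h the 4 values were 81.7, 70.4, 39.1 and 35.2 CPM, again with animals 1 and 2 high. In Angus NQO1 went from 127, 143, 157 and 96.3 CPM at 0 h to 117, 129, 149 and 92.6 CPM at 2 h and 79.7, 89.8, 89.2 and 69.1 CPM at 8 h. The change per animal from 0 h to 8 h was narrow in comparison, from -0.48 to -0.81 on the log2 scale over all 8. With the animal block NQO1 fell at 2 h (-0.12, edgeR FDR = 0.005), at 8 h (-0.70, FDR = 8.07e-39) and at 8 h within Holstein (-0.73, FDR = 6.38e-32). From 2 h to 8 h the change was -0.59 ± 0.24 (FDR = 0.0588), or -0.58 with the block (FDR = 3.05e-31). The interval at the 3′ end of NQO1, which carries no symbol, took 0.212 to 0.904 counts per NQO1 count and rose at 2 h (0.34 ± 0.13, edgeR FDR = 0.0406). With its counts added, NQO1 changed by 0.00 at 2 h and fell by 0.59 at 8 h (FDR = 0.00677).

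**Figure D3:**
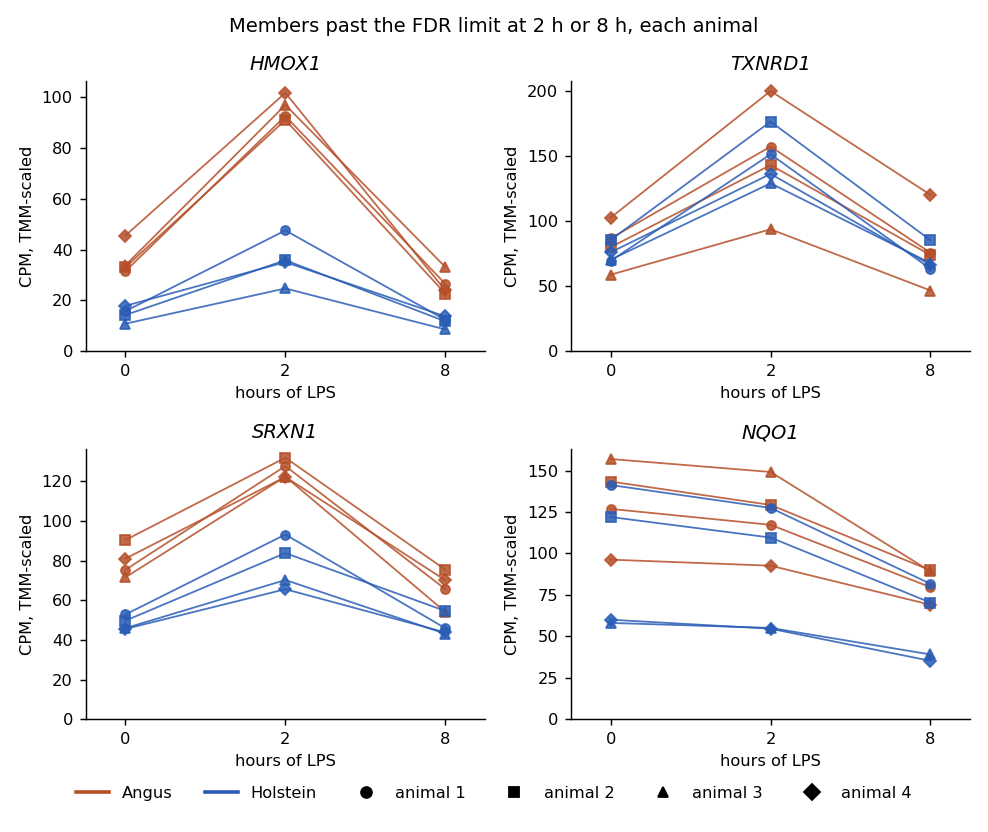
TMM-scaled CPM of HMOX1, TXNRD1, SRXN1 and NQO1 at 0, 2 and 8 h of LPS, with 1 line per animal and each panel starting at 0. HMOX1, TXNRD1 and SRXN1 peak at 2 h in all 8 animals, the Angus lines of HMOX1 lie above all Holstein lines, and NQO1 declines in every animal, with Holstein animals 3 and 4 at 35.2 to 60.03 CPM throughout.

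Counted together at 2 h with the breeds combined, 3 of the 10 genes rose and none fell by the FDR limit, against 10.8% of all rows tested that rose and 11.2% that fell. At 8 h 1 rose and 1 fell (6.55% and 6.25% of all rows), though the quasi-likelihood test called none lower (1 at an unadjusted p under 0.05, 1 by DESeq2), and from 2 h to 8 h 1 rose and 3 fell (12.2% and 11.6%). The median log2 change of the 10 genes was 0.10 at 2 h and -0.11 at 8 h, beside -0.0039 and -0.0072 over all rows. At an unadjusted p under 0.05 no gene was lower at 2 h either, nor by the quasi-likelihood test or DESeq2. With the animal block at 2 h 5 genes rose (SOD2, GCLM, TXNRD1, SRXN1 and HMOX1) and 1 fell (NQO1), where 47.5% of all rows passed. At 8 h 2 rose (SOD2 and GCLC) and 5 fell (SOD1, SLC7A11, SRXN1, NQO1 and HMOX1), where 40.7% of all rows passed. The 3 early genes rose in each breed on its own, as 3 of 9 genes tested in Holstein (9.0% of rows higher) and 3 of 10 in Angus (6.88%).

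The glutathione synthesis genes responded little. GCLC is the catalytic and GCLM the modifier subunit of glutamate-cysteine ligase, which makes the first step of glutathione synthesis, and SLC7A11 imports the cystine that this step needs. GCLC (chr23:6922380-6965163, plus strand) was at 7.67 to 10.9 CPM in Holstein and 10.3 to 17.6 CPM in Angus over all hours. Its change was 0.02 ± 0.16 at 2 h and 0.23 ± 0.16 at 8 h (FDR = 0.395), higher at 8 h in 7 of 8 animals, with Angus animal 3 the exception. With the block GCLC rose at 8 h (0.23, edgeR FDR = 0.00172).

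GCLM (chr3:49741375-49759101, plus strand) changed by 0.15 ± 0.26 at 2 h (FDR = 0.794, or 0.15 with the block, FDR = 0.00997) and by -0.09 ± 0.21 at 8 h (FDR = 0.85). The 4 Angus animals went from 31.8, 30.3, 26.6 and 38.6 CPM at 0 h through 31.8, 32.5, 34.1 and 42.3 CPM at 2 h to 24.4, 25.0, 25.0 and 31.9 CPM at 8 h. The Holstein animals went from 19.1, 14.8, 14.4 and 15.7 CPM through 22.7, 16.1, 16.5 and 16.6 CPM to 19.4, 19.3, 16.2 and 18.6 CPM. From 0 h to 8 h GCLM was lower in 4 of 4 Angus and higher in 4 of 4 Holstein animals. The interaction at 8 h was 0.45 ± 0.19 (95% interval 0.08 to 0.82) with an FDR of 1.0. With the animal block it was the only interaction of the 10 genes that passed the FDR limit at 8 h (0.45, edgeR FDR = 0.00346), where 2.59% of all rows did, and with the block and the quasi-likelihood test it did not (0.45, FDR = 0.0771).

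SLC7A11 (chr17:19729366-19808282, plus strand) was at 17.8, 16.6, 11.8 and 16.3 CPM in Angus at 0 h and at 8.94, 9.02, 8.25 and 8.37 CPM in Holstein. At 2 h the Angus cultures had 12.7 to 14.1 CPM and the Holstein cultures 8.58 to 12.1 CPM, lower than before in Angus 1, 2 and 4 and higher in Angus 3 and all 4 Holstein cultures. The interaction at 2 h was 0.49 ± 0.21 (FDR = 0.819). With the breeds combined SLC7A11 changed by -0.06 ± 0.19 at 2 h and -0.33 ± 0.20 at 8 h (FDR = 0.312), and with the block it fell at 8 h (-0.29, edgeR FDR = 0.00871). The interval that follows the gene took 2.95 to 4.37 counts per SLC7A11 count and changed by 0.08 ± 0.18 at 2 h and by -0.39 ± 0.20 at 8 h.

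**Figure D4:**
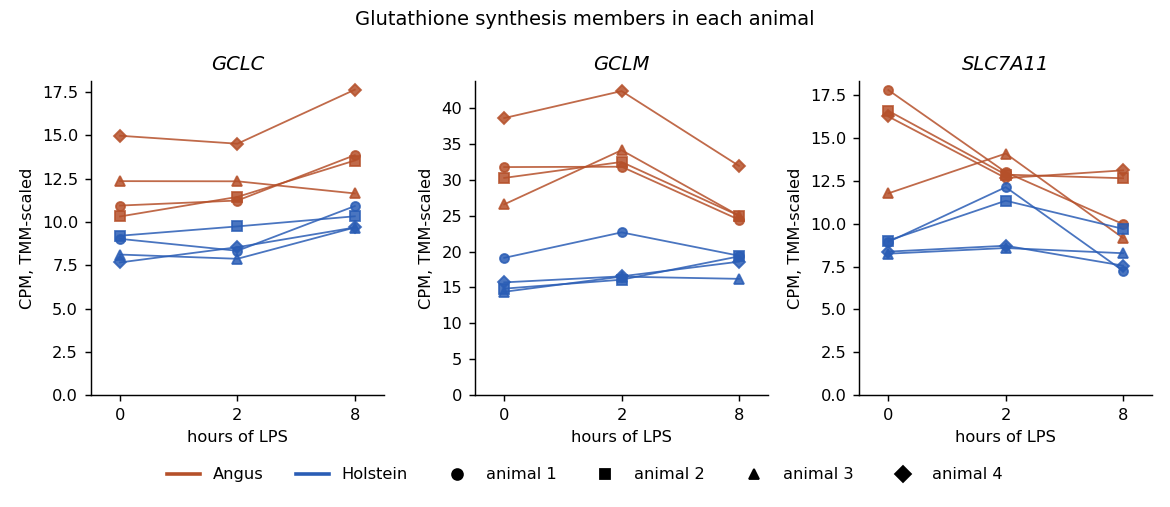
TMM-scaled CPM of GCLC, GCLM and SLC7A11 at 0, 2 and 8 h of LPS, with 1 line per animal and axes from 0. Angus lines lie above Holstein lines at all hours for GCLC and GCLM, and GCLM ends lower than it began in the 4 Angus animals and higher in the 4 Holstein animals.

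Between breeds, most of these genes stood lower in Holstein. At 0 h 6 of the 10 (SOD3, GCLC, GCLM, SLC7A11, SRXN1 and HMOX1) were lower in Holstein by the FDR limit and none was higher, where 6.98% of all rows tested were lower and 6.83% higher. SOD2 was the 1 gene higher at an unadjusted p under 0.05 at 0 h and at 8 h, and the quasi-likelihood test and DESeq2 called none higher, DESeq2 giving no adjusted p for SOD2 at 8 h. In 1 fit of all 24 samples SOD2 was higher at 8 h (FDR = 0.0407). At 2 h 6 were lower (SOD1, SOD3, GCLC, GCLM, SRXN1 and HMOX1) against 9.71% of all rows, and at 8 h 5 (SOD3, GCLC, GCLM, SRXN1 and HMOX1) against 7.78%. The median breed difference of the 10 genes was -0.61, -0.52 and -0.49 at 0, 2 and 8 h, while that of all rows was -0.0022, -0.0086 and 0.0057. All 4 Holstein cultures lay below all 4 Angus cultures for 6 genes at 0 h and 2 h (SOD3, GCLC, GCLM, SLC7A11, SRXN1 and HMOX1) and for 3 at 8 h (GCLC, GCLM and HMOX1). Such separation with Holstein lower held for 7.99%, 11.1% and 9.12% of all rows. The 5 genes lower at all 3 hours by the FDR limit were SOD3, GCLC, GCLM, SRXN1 and HMOX1, and 4.13% of the rows tested at all hours were lower throughout. Among these, SOD3 came through the expression filter by its Angus level, being below the filter within Holstein. The hours share their animals and are not independent of each other. Of the 10 fibroblast markers, 3 were higher and 1 lower in Holstein by the FDR limit at 0 h, and 4 were higher and 1 lower at 2 h and at 8 h. Their summed level, which includes COL1A1 and so its other counting in 4 libraries, was 58520 to 75410 CPM for Angus against 90630 to 140200 for Holstein at 0 h. At 2 h the ranges were 50110 to 96490 and 87300 to 100900 CPM and overlapped, and at 8 h they were 44640 to 66710 and 77270 to 94060 CPM. The keratinocyte markers at 0 h summed to 1.51 to 2.00 CPM in the Angus cultures and 1.92 to 14.0 CPM in the Holstein ones. Of the mural and muscle markers, 2 of 4 tested were higher in Holstein by the FDR limit at 0 h. At 2 h it was 1 of 3 and at 8 h 1 of 4, and none was lower at any hour. The part of any of these markers in the breed differences was not tested.

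SOD3 and HMOX1 passed the full threshold at every hour, with 2.08%, 2.02% and 1.03% of all rows lower by that threshold at 0, 2 and 8 h. The 4 Angus cultures were enough to bring SOD3 through the expression filter of these tests, while within Holstein it was below the filter. SOD3, the secreted dismutase, stood in Angus at 4.44, 2.28, 4.38 and 2.20 CPM at 0 h, at 5.80, 2.10, 4.32 and 2.12 CPM at 2 h and at 6.38, 2.91, 4.97 and 1.46 CPM at 8 h. In Holstein it stood at 1.32, 0.67, 0.99 and 1.08 CPM, then at 1.18, 0.63, 0.88 and 1.07 CPM, then at 1.68, 0.57, 0.75 and 1.44 CPM. Angus animals 1 and 3 were high and animals 2 and 4 low at every hour, and at 8 h Holstein animal 1 lay above Angus animal 4. The difference (Holstein over Angus) was -1.71 ± 0.33 at 0 h (3.27-fold lower, FDR = 3.01e-05), -1.93 ± 0.38 at 2 h (3.82-fold, FDR = 4.43e-05) and -1.82 ± 0.49 at 8 h (3.52-fold, FDR = 0.00496). The interval at its 3′ end held 0.156 to 3.02 counts per SOD3 count and differed between breeds by -0.37 ± 0.26 at 0 h and 0.23 ± 0.26 at 8 h, neither past the FDR limit. It fell at 8 h with the breeds combined (-0.90 ± 0.19, edgeR FDR = 6.02e-05), beside 0.21 ± 0.50 for the SOD3 row. With those counts added SOD3 was lower in Holstein by less, at -1.01 (FDR = 0.00046), -1.0002 (FDR = 0.00431) and -1.11 (FDR = 0.0183).

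For HMOX1 the breed difference was -1.29 ± 0.18 at 0 h (2.45-fold lower in Holstein, FDR = 2.34e-09), -1.42 ± 0.18 at 2 h (2.68-fold, FDR = 1.62e-11) and -1.19 ± 0.18 at 8 h (2.28-fold, FDR = 3.30e-08). Its LPS response did not differ between the breeds beyond the error, with an interaction of -0.12 ± 0.27 at 2 h (95% interval -0.64 to 0.40) and 0.09 ± 0.26 at 8 h.

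GCLM was 1.99-fold lower in Holstein at 0 h (-0.99 ± 0.15, FDR = 2.92e-08), 1.97-fold at 2 h (-0.98 ± 0.16, FDR = 1.45e-07) and 1.44-fold at 8 h (-0.53 ± 0.13, FDR = 0.00114). SRXN1 differed by -0.71 ± 0.11, -0.70 ± 0.13 and -0.50 ± 0.13 (FDR = 1.49e-07, 1.27e-05 and 0.00404). For GCLC the values were -0.51 ± 0.16, -0.53 ± 0.15 and -0.48 ± 0.15 (FDR = 0.0153, 0.00472 and 0.0158), and its call at 0 h was lost without the 4 libraries with other COL1A1 counting (-0.39, FDR = 0.439), 3 of which are 0 h samples. It was also lost without Angus 4, Holstein 3 or Holstein 4 (FDR = 0.0653 to 0.0832), and at 8 h without Angus 4 or Holstein 2, 3 or 4 (FDR = 0.0526 to 0.0763). SLC7A11 was lower in Holstein at 0 h (-0.85 ± 0.16, FDR = 6.96e-06) and missed the limit at 2 h (-0.37 ± 0.16, FDR = 0.076) and at 8 h (-0.45 ± 0.17, FDR = 0.0546). SOD1 passed at 2 h only (-0.31 ± 0.12, FDR = 0.0498) beside -0.24 ± 0.12 at 0 h and -0.25 ± 0.12 at 8 h, and lost the call when any animal but Holstein 3 was left out (FDR = 0.0591 to 0.2, 7 animals).

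TXNRD1 and NQO1 showed no breed difference past the limit. TXNRD1 differed by -0.12 ± 0.17 at 0 h, -0.01 ± 0.22 at 2 h and -0.16 ± 0.25 at 8 h, with 95% intervals from -0.46 to 0.21, -0.44 to 0.42 and -0.65 to 0.34. NQO1 differed by -0.46 ± 0.30, -0.50 ± 0.30 and -0.53 ± 0.27 (FDR = 0.34, 0.237 and 0.162), with Holstein animals 1 and 2 inside the Angus range at 0 h and 2 h.

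**Figure D5:**
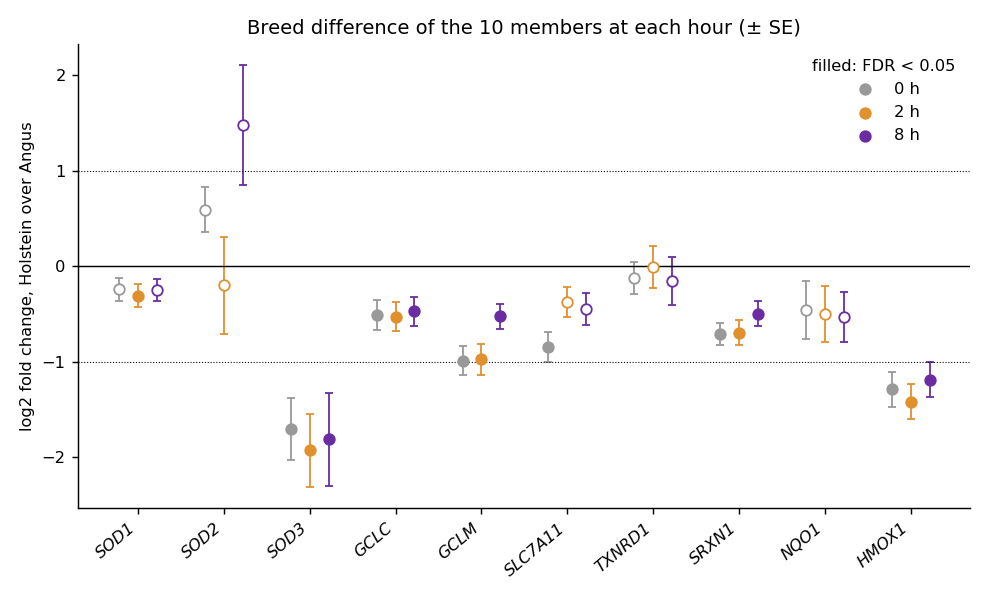
Log2 fold change of Holstein over Angus, ± SE from the fit, for the 10 genes at 0, 2 and 8 h (4 animals per breed and hour). Filled points passed an FDR of 0.05 and dotted lines mark a 2-fold change. SOD3 and HMOX1 lie below -1 at every hour, GCLC, GCLM and SRXN1 lie between 0 and -1, and SOD2 is the gene whose points change side, from 0.59 at 0 h to -0.20 at 2 h and 1.48 at 8 h.

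No antioxidant gene passed the FDR limit for an interaction of breed and LPS at 2 h or at 8 h in the fits without a block (0 of 10 by edgeR's likelihood-ratio and quasi-likelihood tests and by DESeq2, with 0.437% and 0.137% of all rows passing the first). At an unadjusted p under 0.05 there was 1 at each hour, SLC7A11 at 2 h and GCLM at 8 h. At 2 h the largest value was that of SOD2 (-0.79 ± 0.60) and the interval of every gene but SLC7A11 included 0. At 8 h the interval of GCLM alone excluded 0 before adjustment. The remaining values at 8 h ran from -0.11 ± 0.62 for SOD3 to 0.88 ± 0.73 for SOD2.

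Genes around these 10 in the same pathways were taken from 7 lists with 104 genes, of which 80 to 82 were tested per comparison. At 2 h with the breeds combined 9 rose and 6 fell by the FDR limit, and at 8 h 9 rose and 8 fell, with medians of 0.01 and -0.02. Over all rows 10.8% rose and 11.2% fell at 2 h, and 6.55% and 6.25% at 8 h.

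Among the KEAP1-NRF2 regulators, 5 of 12 tested rose at 2 h and 1 fell. MAFF, a small MAF partner of NRF2 and BACH1, rose from 6.31 ± 2.09 (SD) to 16.4 ± 4.48 CPM in Angus and from 4.88 ± 1.47 to 13.3 ± 0.72 CPM in Holstein (1.41 ± 0.19, edgeR FDR = 1.74e-11), and it was still higher at 8 h (1.13 ± 0.20, FDR = 2.37e-06). BACH1, the repressor of HMOX1, rose at 2 h as well (1.05 ± 0.20, FDR = 3.24e-06), from 16.4 ± 1.55 to 39.8 ± 2.66 CPM in Angus and from 28.9 ± 7.92 to 54.5 ± 7.14 CPM in Holstein. MAFK fell between 2 h and 8 h (-1.03 ± 0.27, FDR = 0.00158) and was past the threshold higher in Holstein at 2 h (1.20 ± 0.21, FDR = 1.53e-06). Its Holstein mean was also above the Angus mean at 0 h (6.60 ± 1.36 against 3.31 ± 0.74 CPM) and at 8 h (5.23 ± 0.55 against 3.23 ± 0.46 CPM).

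Of the 12 peroxide removal genes tested, 2 rose at 2 h and 1 fell at 8 h by the FDR limit, and none passed the full threshold for LPS. GPX3, the secreted glutathione peroxidase, was higher in Holstein at every hour, at 23.4 ± 9.38 against 6.00 ± 4.14 CPM at 0 h (1.96 ± 0.48, edgeR FDR = 0.00212), by 1.66 ± 0.53 at 2 h (FDR = 0.0167) and by 2.10 ± 0.44 at 8 h (FDR = 0.000209). Its direction was opposite to that of SOD3, the other secreted antioxidant enzyme here.

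Among thioredoxin, glutaredoxin and methionine sulfoxide repair genes (14 tested), none rose at 2 h and 2 fell. SESN2, a stress-responsive sestrin, fell at 2 h (-1.50 ± 0.13, edgeR FDR = 5.01e-28) from 51.3 ± 3.16 to 14.5 ± 1.86 CPM in Angus and from 47.6 ± 3.97 to 20.5 ± 3.08 CPM in Holstein. SESN3 fell at 8 h (-1.59 ± 0.21, FDR = 2.37e-11). In the glutathione use and recycling list (18 tested), none rose at 2 h and 2 fell, with CHAC1, an enzyme that degrades glutathione, the only one past the threshold (-2.26 ± 0.14, FDR = 2.89e-48). CHAC1 went from 26.2 ± 3.37 to 5.02 ± 1.20 and back to 26.2 ± 5.22 CPM over the 3 hours in Angus and from 23.2 ± 3.52 to 5.27 ± 1.28 and 23.3 ± 3.99 in Holstein.

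None of the 10 NADPH supply genes passed the threshold with the breeds combined, and 1 rose at 2 h and 1 at 8 h by the FDR limit. In the iron and haem list (11 tested) 3 rose and 2 fell at 8 h. MT2A, a metal-binding metallothionein, rose at 8 h (2.08 ± 0.49, edgeR FDR = 0.00113) from 15.8 ± 11.4 to 46.0 ± 27.0 CPM in Angus and from 3.07 ± 1.22 to 33.97 ± 7.538 CPM in Holstein, and at 0 h it was lower in Holstein (-2.36 ± 0.50, FDR = 0.000372). Metallothioneins are near-identical copies, so reads of MT2A may be shared with others of the family. Only 3 of the 16 superoxide and nitric oxide sources were expressed enough to be tested for LPS with the breeds combined. Of these XDH, xanthine dehydrogenase, rose at 8 h (1.37 ± 0.20, FDR = 1.33e-09) from 159 ± 41.9 to 343 ± 157 CPM in Angus and from 135 ± 26.0 to 419 ± 65.7 CPM in Holstein. CYBA, the p22phox subunit of NADPH oxidases, was past the threshold higher in Holstein at 8 h (1.01 ± 0.26, FDR = 0.00292). Its means were similar at all hours, at 27.2 ± 4.31 (Holstein) against 14.4 ± 4.17 CPM (Angus) at 0 h. They were 28.5 ± 3.94 against 15.5 ± 4.34 CPM at 2 h and 27.7 ± 4.28 against 13.8 ± 5.13 CPM at 8 h. DUOX1 of the same list was lower in Holstein at 0 h (-1.86 ± 0.44, edgeR FDR = 0.00126), at 0.75 ± 0.14 against 2.715 ± 1.70 CPM in Angus. Its Holstein mean was below the 1 CPM of the expression filter, so its Angus level brought it through.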

How the data were processed

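Polyadenylated RNA of 24 fibroblast samples (8 animals, 3 hours, RNA taken from replicate wells) had been sequenced. Per the labels and the study's methods, the authors cleaned the reads, aligned them to UMD v3.1 with NextGENe 2.3.4 and deposited raw read counts per row, without normalization. The deposited mean coverage of each row served here to check how reads had been counted. The processing notes also name CASAVA 1.7. Summed counts were 1.5 to 1.712 per matched read, so rows can share reads. Rows span whole genes, so exons, introns and untranslated regions are not told apart.

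As in the study, rows with a CPM of 1 or more in at least 50% of the samples compared were kept, and each comparison was tested on its own samples by a likelihood-ratio test in edgeR 4.0.16 (R 4.3.3) with Benjamini-Hochberg adjustment over all rows. TMM scaling was added. SE came from the information matrix, and changes per animal used log2(CPM + 0.5). Groups and animals came from the labels. Samples with the same number within a breed are the same animal. Their deviations from group means correlated (mean r = 0.648 between 0 h and 2 h, lowest 0.533, and 0.608 between 0 h and 8 h, lowest 0.514). For other animals the mean r was -0.214 and -0.202. Deviations from a group mean cancel within the group, so these negative values follow from the positive ones and are no separate check. Fits with the animal as a block are given for part of the calls that they change. All 36 pairs of samples within groups differed beyond counting noise, and counting floors cover counting error only.

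The 10 genes, the pathway lists and the rule for named genes were chosen with earlier results of these data known. The 10 genes are named throughout. From the lists, genes past the threshold could be named, at most 3 per list and comparison, as could the 5 rows most like SOD2. All 10 symbols were found in the RefSeq gene table of ARS-UCD2.0, another build, used for names and spans only. TXNRD3 and MSRB1 of the lists had no row. Sequences are not shown. Alternatives were the quasi-likelihood F test, DESeq2 1.42.0, no TMM, other size factors, a filter of 10 counts or none, rows with a symbol only, 1 fit of all samples, leaving out samples, and a block. Adding a 3′ interval or LOC100848019 to a gene was chosen after the data had been seen. The tests were tried on simulated counts.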

Additional observations from a re-analysis of the deposited data

Results flagged for a closer look

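In 5 of 60 groups of 4 samples (10 genes in 6 groups), the highest sample lay apart from the rest, with a gap to the nearest sample that was above Dixon's 95% critical value for 4 samples, as a share of the group's range. Chance marks about 1 in 20 such groups. For SOD2 the sample was Angus animal 3, at 2 h with 11.5 CPM against 2.85 CPM in the next (0.951 of the range) and at 8 h with 24.1 against 5.98 CPM (0.83). For GCLM it was Holstein animal 1 at 2 h, with 22.7 against 16.6 CPM (0.929), and Angus animal 4 at 8 h, with 31.9 against 25.0 CPM (0.925). For HMOX1 it was Angus animal 4 at 0 h, with 45.6 against 33.9 CPM (0.835). Covered bases per count over all samples were 65.6 to 77.6 for SOD2 and 76.3 to 80.1 for HMOX1, without a shift of the COL1A1 size. The 2 h sample of Angus 3 and the 0 h sample of Angus 4 are among the 4 libraries with other COL1A1 counting. The part of that counting in their SOD2 and HMOX1 levels was not tested further. The other 3 samples are not among the 4 libraries.

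The change of GCLM from 0 h to 8 h was negative in 4 of 4 Angus animals (-0.09 to -0.37 on the log2 scale) and positive in 4 of 4 Holstein animals (0.02 to 0.37), a difference of means of 0.447. The interaction test of this difference did not pass the FDR limit (0.45 ± 0.19, edgeR FDR = 1.0), passed with the animal as a block (0.45, FDR = 0.00346) and did not with the block and the quasi-likelihood F test (0.45, FDR = 0.0771).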

How the results depend on the processing

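Of 2295 values of the 10 genes under other settings that had an adjusted p, 2078 kept their sign and side of the FDR limit, 79 missed the limit as before with the other sign and a shift of at most 1 SE, 7 changed sign with a larger shift or past the limit, 84 newly passed the limit and 47 lost it. DESeq2 gave no adjusted p for SOD2 between breeds at 8 h. Causes were not tested. The 7 were, without the COL1A1 libraries, SOD3 at 2 h (-0.46), SOD2 between breeds at 2 h (0.70) and the SOD2 interaction at 2 h (0.045), without TMM, SOD1 from 2 h to 8 h (0.033) and SOD1 in Angus at 2 h (-0.11), and 2 that left out 1 animal. Signs without TMM differed in 15 values in all. Between breeds, leaving out 1 animal gave -0.43 to 0.70 for SOD2 at 2 h (0.70 without Angus 3) and -0.35 to 0.10 for TXNRD1 at 8 h (0.10 without Angus 4). The count of genes past the threshold became, with the FDR limit alone, 3, 2 and 4 (combined, 2 h, 8 h and 8 h against 2 h), 3 (Holstein, 2 h), 3 and 2 (Angus, 2 h and 8 h) and 6, 6 and 5 (breeds at 0, 2 and 8 h). Without the COL1A1 libraries it was 2 at 2 h, combined and in each breed, and 0 in Angus at 8 h. In Angus at 8 h it was also 0 by the quasi-likelihood test, DESeq2, the 10-count filter and no filter (FDR of SOD2 = 0.168, 0.0561, 0.0514 and 0.0618 by edgeR or DESeq2). Leaving out 1 animal gave 1 to 2 in Holstein at 2 h (2 without Holstein 4), 0 to 1 in Angus at 8 h (0 without Angus 1, 2 or 3) and 0 to 1 for the 8 h interaction (1 without Angus 3). The SOD2 to SOD1 log2 ratio without the COL1A1 libraries was 0.84 between breeds at 0 h and changed by 0.42 to 2 h and 2.40 to 8 h, and leaving out 1 animal gave 0.74 to 1.016 between breeds at 0 h, 0.24 to 0.99 at 2 h and 1.78 to 2.97 at 8 h. With fewer samples the smallest exact p is larger. The animal block raised the rows past the FDR limit from 4436 to 9575 at 2 h. Within Angus at 8 h it put 1 gene higher (SOD2) and 5 lower (GCLM, SLC7A11, SRXN1, NQO1 and HMOX1), where 20.7% of all rows passed. Within Holstein at 8 h 3 were higher (SOD2, GCLC and GCLM) and 3 lower (SOD1, NQO1 and HMOX1), where 35.2% passed. From 2 h to 8 h 2 were higher (SOD2 and GCLC) and 5 lower (SLC7A11, TXNRD1, SRXN1, NQO1 and HMOX1), where 48.4% passed. Between breeds, where equal numbers mark unrelated animals, the replicate block gave 5, 5 and 6 genes past the FDR limit (9.73%, 14.6% and 12.1% of all rows). It put SOD2 higher at 8 h (2.13, edgeR FDR = 0.0347), but this pairing is arbitrary and the main test missed the limit there. Leaving out TMM moved the median of all rows by up to 0.1332.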
